A study of Homo sapiens with 36 samples.

Results

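The 39 genes described here encode the machinery that copies DNA and the regulators that start it at the passage from G1 to S phase. They were chosen by name, with earlier results of these data known. A gene entered a cell line's test where its mean over the 9 libraries of that line was at least 1 FPKM. FPKM are fragments scaled to gene length and to the library's mapped fragments. All 39 were found among the 66366 named genes of each library and none was listed at 0 in a library. In H3255, H1975 and A549 all 39 were tested, and in H820 38 were, since E2F2 lay just under the limit at a mean of 0.698 FPKM. The lowest member inside the limit was also E2F2, at 1.14 FPKM in H1975.

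The study asked what an RNA aptamer against the epidermal growth factor receptor (EGFR) does to the transcripts of human non-small cell lung cancer lines. Aptamers are nucleic acids whose fold lets them bind a target. MinE07, the EGFR aptamer, and C36, the control, used as an extended version, were each used at 3 µM, and vehicle was DPBS with magnesium. Every group had 3 libraries taken after 24 h, in medium with 1% serum, while the lines were maintained in 10% serum. Per the labels H3255 carries EGFR L858R, H1975 carries L858R with T790M, H820 carries Ex19del with T790M, and A549 has wild-type (WT) EGFR. A549 was grown in DMEM and the other lines in RPMI, so the medium and the line cannot be told apart. Each line stands for a genotype together with the rest of its background. According to the series record the 3 experiments were biologically independent.

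Origins of replication are marked by the origin recognition complex, and CDC6 and CDT1 then load the MCM helicase onto them in G1. Cyclin E with its kinase, and the E2F transcription factors released from the retinoblastoma protein, drive entry into S phase, where CDC45 and GINS switch the helicase on. Primase and the polymerases copy the strands, a sliding clamp holds them on DNA, and nucleotide-making enzymes supply the building blocks. In EGFR-mutant lung cancer cells this programme lies downstream of growth signals from the receptor.

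Over the 36 libraries the relative sequencing depth ran from 0.590 to 1.385 of the median, and 13236 to 14267 genes lay above 1 FPKM. All 5 epithelial markers (EPCAM, CDH1, KRT8, KRT18 and KRT19) were at 1 FPKM or more in each line. Of 5 lung lineage markers, 4 reached that level in H3255, 2 in H820, 1 in H1975 and 0 in A549. Endothelial markers were under 1 FPKM in each line. The leukocyte markers PTPRC and CD3E were under 1 FPKM in each line, while CD68 was above it in each line and CD14 in H1975, H820 and A549. The summed leukocyte markers ran from 1.59 to 2.27 FPKM in H3255, 17.6 to 19.5 in H820, 60.8 to 64.9 in H1975 and 68.03 to 98.02 in A549, and their part in the results was not tested. The summed fibroblast markers reached 17.1 FPKM in H1975, the highest of the lines.

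Promoters of replication genes are known for binding sites of E2F, and 35 of the 39 genes had a promoter in the RefSeq table (build GRCh38.p14, 250 bases before to 50 after the first listed start). The 8-base motifs TTTCCCGC, TTTGGCGC, TTTGCCGC and TTTCGCGC were searched on both strands. A match was found in 21 of the 35 members (60.0%), against 908 of 27305 promoters (3.3%). Counting only the 250 bases before the start, 15 members (42.9%) and 2.8% of all promoters held a match. CCAAT, the site of NF-Y, was in 20 members (57.1%) and in 35.7% of all promoters. The CHR motifs of late cell cycle genes, TTTGAA and TTCGAA, were in 2 members (5.7%) and in 16.6% of all. A match describes letters and is not a measured binding site. TTTGGCGC and TTTCGCGC can overlap when they lie on opposite strands, as they do in MCM6. The 150 bases before the start are shown for 7 members that the results below turn on, 5′ to 3′ along the gene's strand, with E2F motif matches in capitals. The E2F1 window is chr20:33686386-33686535, minus strand, and that of MCM6 is chr2:135876444-135876593, minus strand. For TYMS it is chr18:657503-657652, plus strand, and for UHRF1 (the first of 3 listed starts) chr19:4909351-4909500, plus strand. CDC6 is shown at chr17:40287729-40287878, plus strand, RRM2 (the first of 2 listed starts) at chr2:10122589-10122738, plus strand and PRIM1 at chr12:56752324-56752473, minus strand.
E2F1: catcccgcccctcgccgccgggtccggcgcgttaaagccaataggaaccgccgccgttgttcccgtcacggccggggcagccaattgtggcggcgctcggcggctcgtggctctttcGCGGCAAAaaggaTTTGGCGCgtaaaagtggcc
MCM6: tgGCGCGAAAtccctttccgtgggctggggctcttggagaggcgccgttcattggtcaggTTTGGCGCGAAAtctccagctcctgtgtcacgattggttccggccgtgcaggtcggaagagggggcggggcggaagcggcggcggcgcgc
TYMS: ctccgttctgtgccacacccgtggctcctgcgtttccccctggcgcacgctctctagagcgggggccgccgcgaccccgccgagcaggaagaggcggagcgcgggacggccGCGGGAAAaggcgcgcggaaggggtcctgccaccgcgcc
UHRF1: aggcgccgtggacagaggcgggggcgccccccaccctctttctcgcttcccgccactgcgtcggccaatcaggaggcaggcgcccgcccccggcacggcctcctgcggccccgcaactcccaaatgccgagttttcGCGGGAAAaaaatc
CDC6: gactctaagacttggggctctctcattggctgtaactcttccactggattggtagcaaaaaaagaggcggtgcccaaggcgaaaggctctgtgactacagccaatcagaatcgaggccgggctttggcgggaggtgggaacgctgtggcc
RRM2: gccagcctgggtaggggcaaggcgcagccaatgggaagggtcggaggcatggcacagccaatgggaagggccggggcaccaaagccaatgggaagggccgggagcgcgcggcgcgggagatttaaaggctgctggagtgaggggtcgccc
PRIM1: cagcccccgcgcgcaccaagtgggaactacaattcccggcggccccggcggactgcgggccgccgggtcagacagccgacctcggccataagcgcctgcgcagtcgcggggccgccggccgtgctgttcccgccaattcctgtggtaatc

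E2F1 held 2 matches, which begin 33 and 20 bases before the start. MCM6 held an overlapping pair on opposite strands that begins 90 bases before the start, and a further pair at 152 bases that the printed window cuts. TYMS and UHRF1 held 1 each, 39 and 14 bases before the start. CDC6 has no match in the printed window and 1 at base 8 after its start. RRM2 has no E2F match in the 300 bases searched and 3 CCAAT boxes, and PRIM1 has no E2F match and 1 CCAAT box.

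With MinE07, transcripts of the replication genes were lower than with C36 in both lines that carry L858R. In H3255, 29 of 39 members fell, by 7.03% to 29.2% (of all tested genes 20.0% were called lower), led by the nucleotide enzymes RRM2, TK1 and TYMS. In H1975, 31 of 39 fell, by 8.38% to 23.2% (of all tested genes 11.1%), led by UHRF1, the helicase activator MCM10 and the licensing factor CDC6. No member rose in either line (16.6% and 8.88% of all tested genes were called higher). In H820 and A549 no member was called, where only 0.0364% and 0% of all tested genes were called. Changes are differences of mean log2(FPKM + 0.5), tested with limma over all genes of the line and called where the p adjusted by Benjamini and Hochberg was under 0.05. Because RNA was taken from all cells of a culture, fewer cells in S phase and less RNA of these genes per cell cannot be told apart.

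These shares of called genes are over 13429 genes tested in H3255 and 14183 in H1975. The median log2 change of the members was -0.14 in H3255, where that of all tested genes was -0.0092. In H1975 the members' median was -0.21 and that of all genes -0.0074. All 3 MinE07 libraries lay below all 3 C36 libraries for 32 members in H3255 (27.1% of all tested genes) and for 35 in H1975 (21.6%). The summed FPKM of the 39 genes in H3255 was 1126 to 1186 with MinE07, 1316 to 1322 with C36 and 1274 to 1333 with vehicle. In H1975 these sums were 829.5 to 841, 966 to 975 and 971 to 983. Without a filter on low values, 18 members were called in H3255. In the heat map of changes the L858R lines stand out in the comparisons that hold MinE07.

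**Figure D1:**
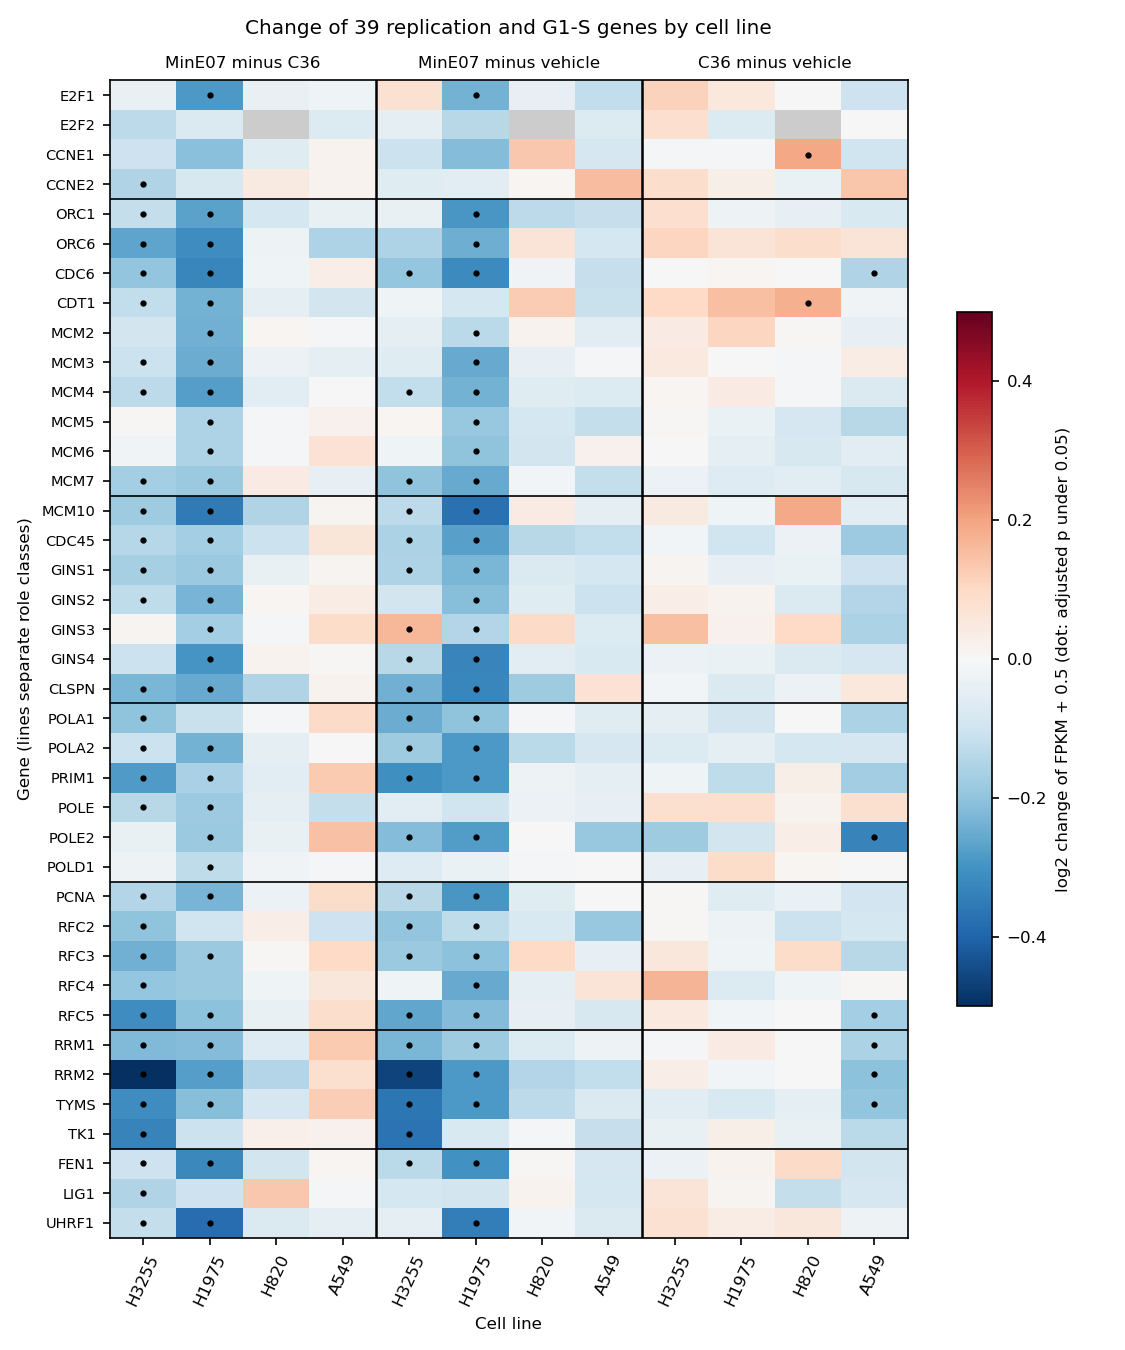
Log2 change of each of the 39 genes (rows, by role) in each line (columns) for MinE07 minus C36, MinE07 minus vehicle and C36 minus vehicle, with called changes marked and E2F2 in H820 left grey because it was not tested. H3255 and H1975 are blue in nearly every row of both MinE07 comparisons, with RRM2 in H3255 the deepest at -0.50.

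Between MinE07 and C36 the median log2 change of the 21 members with a match was -0.13 in H3255, with 15 called lower, and that of the 14 without was -0.20, with 12 called lower. In H1975 the medians were -0.21 with a match (18 called lower) and -0.21 without (10 called lower). These medians and counts are descriptions with no test. Of all tested genes 20.0% were called lower in H3255 and 11.1% in H1975. The same shares stand beside the counts by role class that follow.

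Among the 4 regulators, 1 fell in H3255 and another in H1975. E2F1, an activating transcription factor of the G1-S genes, lay at 15.2, 15.3 and 13.9 FPKM with MinE07, 18.1, 18 and 18.4 FPKM with C36 and 18.4, 17.2 and 16.9 FPKM with vehicle in H1975. There the MinE07 libraries lay below every C36 and every vehicle library, and E2F1 fell by 0.29 on the log2 scale (SE 0.044, adjusted p = 0.00181) against C36. In H3255 its values were 24.6, 25.3 and 27.1 FPKM with MinE07, 25.9, 26.6 and 26.5 FPKM with C36 and 24.7, 24.1 and 24.1 FPKM with vehicle. These groups overlapped between MinE07 and C36, and the change was -0.036 (SE 0.037, adjusted p = 0.485). CCNE2, 1 of the 2 cyclins E that activate CDK2, lay at 12.8, 14.6 and 13.7 FPKM with MinE07, 14.8, 14.99 and 15.9 FPKM with C36 and 14.1, 13.9 and 15 FPKM with vehicle in H3255. The 3 libraries with MinE07 lay below every C36 library and overlapped the vehicle libraries, and it fell by 0.15 on the log2 scale (SE 0.051, adjusted p = 0.0419). That call ended without the filter on low values, without trend and robust moderation and without any of C36 replicates 1, 2 or 3, MinE07 replicates 1 or 3 or vehicle replicate 1 (adjusted p over all alternatives 0.0185 to 0.148). In H1975 CCNE2 changed by -0.080 (SE 0.038, adjusted p = 0.174). GENCODE v29 places 37.0% of its exon bases opposite INTS8, and whether the authors counted by strand is not given in the sources used here.

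CCNE1, the other cyclin E, passed the test in neither L858R line, at -0.10 (SE 0.051, adjusted p = 0.138) in H3255 and -0.21 (SE 0.073, adjusted p = 0.0704) in H1975. E2F2, a close relative of E2F1, lay at 1.01, 1.07 and 1.09 FPKM with MinE07 and 1.05, 1.202 and 1.15 FPKM with C36 in H1975. These libraries overlapped, and the change was -0.072 (SE 0.060, adjusted p = 0.447). In H3255 E2F2 was at 4.35, 4.45 and 4.78 FPKM with MinE07 and 5.12, 5.04 and 4.84 FPKM with C36. There the MinE07 libraries lay below every C36 library, and the change of -0.13 (SE 0.051, adjusted p = 0.0668) missed the threshold. The files list a further entry for E2F2 at 0.939 to 1.11 times its value in each library, so the level of E2F2 may be split between entries.

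Origin recognition and licensing took in 10 members, of which 7 fell in H3255 (median of the 10 -0.12) and all 10 fell in H1975 (median -0.25). CDC6, the loader of the MCM helicase, lay at 9.62, 9.37 and 9.17 FPKM with MinE07, 11.8, 12.2 and 11.7 FPKM with C36 and 11.7, 11.9 and 11.9 FPKM with vehicle in H1975. All 3 libraries given MinE07 lay below every C36 and every vehicle library, and CDC6 fell by 0.33 on the log2 scale (SE 0.032, adjusted p = 0.0002) against C36. In H3255 it lay at 20.7, 19.1 and 20.2 FPKM with MinE07, 23.6, 22.3 and 23.2 FPKM with C36 and 22.3, 23.5 and 23.1 FPKM with vehicle. Again the MinE07 libraries lay below every C36 and every vehicle library, with a fall of 0.20 on the log2 scale (SE 0.039, adjusted p = 0.00293). ORC6, the smallest subunit of the origin recognition complex, had the largest fall of the class in H3255, with 7.52, 7.19 and 7.62 FPKM with MinE07, 9.07, 8.61 and 9.41 FPKM with C36 and 7.56, 8.38 and 9.15 FPKM with vehicle. With MinE07 all 3 libraries lay below every C36 library and overlapped the vehicle libraries, and it fell by 0.26 on the log2 scale (SE 0.061, adjusted p = 0.00711). In H1975 ORC6 lay at 11.6, 10.8 and 11.8 FPKM with MinE07, 13.7, 14.99 and 14.2 FPKM with C36 and 13.04, 13.9 and 14 FPKM with vehicle. There they lay below every C36 and every vehicle library, and ORC6 fell by 0.31 on the log2 scale (SE 0.046, adjusted p = 0.00166).

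ORC1, the subunit that binds ATP and helps recruit CDC6, lay at 4.52, 4.58 and 4.99 FPKM with MinE07, 5.82, 5.76 and 5.65 FPKM with C36 and 5.94, 5.82 and 5.81 FPKM with vehicle in H1975. Libraries with MinE07 lay below every C36 and every vehicle library, and ORC1 fell by 0.27 on the log2 scale (SE 0.042, adjusted p = 0.00226), while in H3255 the fall was 0.12 on the log2 scale (SE 0.041, adjusted p = 0.0431). CDT1, the partner of CDC6 in loading, fell by 0.12 on the log2 scale (SE 0.033, adjusted p = 0.0143) in H3255 and by 0.24 on the log2 scale (SE 0.051, adjusted p = 0.0107) in H1975.

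The 6 MCM subunits form the ring of the replicative helicase, and more of them were called in H1975 than in H3255. In H1975 all 6 fell, from -0.28 for MCM4 to -0.15 for MCM5. In H3255 3 of the 6 fell (MCM3 by 0.11, MCM4 by 0.13 and MCM7 by 0.17 on the log2 scale). MCM4 lay at 41.1, 40.9 and 40.9 FPKM with MinE07, 49.2, 49.6 and 50.3 FPKM with C36 and 47.5, 48.5 and 48.97 FPKM with vehicle in H1975. Its 3 MinE07 libraries lay below every C36 and every vehicle library, and it fell by 0.28 on the log2 scale (SE 0.025, adjusted p = 0.000146). MCM5 in H1975 was at 21.5, 22.5 and 20.97 FPKM with MinE07, 23.98, 24.5 and 23.9 FPKM with C36 and 25.7, 24.3 and 24.1 FPKM with vehicle. All MinE07 libraries lay below every C36 and every vehicle library, and MCM5 fell by 0.15 on the log2 scale (SE 0.036, adjusted p = 0.0143). The MCM5 call ended without the filter on low values and without any of C36 replicate 2 or MinE07 replicate 3 (adjusted p over all alternatives 0.00293 to 0.0568). In H3255 MCM5 was at 19.4, 20.5 and 21.7 FPKM with MinE07, 20.2, 20.7 and 20.4 FPKM with C36 and 19.9, 21.03 and 20.1 FPKM with vehicle. The groups overlapped, and the change of 0.0054 (SE 0.041, adjusted p = 0.935) turned to -0.0016 without C36 replicate 1 and to -0.034 without MinE07 replicate 3. MCM6 changed by -0.018 (SE 0.031, adjusted p = 0.683) in H3255 and MCM2 by -0.090 (SE 0.035, adjusted p = 0.0689).

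Of the 7 members that activate the helicase or guard the fork, 5 fell in H3255 (median -0.14) and 7 in H1975 (median -0.23). MCM10, which helps turn on the loaded helicase, lay at 3.301, 3.35 and 3.03 FPKM with MinE07, 4.18, 4.35 and 4.23 FPKM with C36 and 4.23, 4.55 and 4.22 FPKM with vehicle in H1975. The MinE07 libraries lay below every C36 and every vehicle library, and MCM10 fell by 0.35 on the log2 scale (SE 0.048, adjusted p = 0.00116). In H3255 it fell by 0.18 on the log2 scale (SE 0.047, adjusted p = 0.0134). CLSPN, the claspin that links stalled forks to the checkpoint, lay at 6.74, 6.23 and 6.24 FPKM with MinE07, 7.57, 7.52 and 7.64 FPKM with C36 and 7.36, 7.74 and 7.897 FPKM with vehicle in H3255. Its MinE07 libraries lay below every C36 and every vehicle library, and CLSPN fell by 0.23 on the log2 scale (SE 0.042, adjusted p = 0.00183), the most in this class in that line. CDC45, the helicase cofactor, lay at 8.81, 8.13 and 7.58 FPKM with MinE07, 9.03, 9.39 and 9.33 FPKM with C36 and 9.95, 9.95 and 9.95 FPKM with vehicle in H1975. These MinE07 libraries lay below every C36 and every vehicle library, and it fell by 0.17 on the log2 scale (SE 0.048, adjusted p = 0.0316).

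The 4 GINS subunits bind the helicase together with CDC45, and GINS1 and GINS2 fell in both L858R lines. GINS4 in H1975 lay at 7.77, 7.79 and 7.74 FPKM with MinE07, 9.72, 9.68 and 9.53 FPKM with C36 and 9.73, 10.2 and 9.76 FPKM with vehicle. MinE07 libraries lay below every C36 and every vehicle library, and it fell by 0.29 on the log2 scale (SE 0.031, adjusted p = 0.000304). In H3255 GINS4 changed by -0.11 (SE 0.040, adjusted p = 0.0608). GINS3 in H3255 lay at 9.92, 9.45 and 9.94 FPKM with MinE07, 10.2, 9.74 and 9.09 FPKM with C36 and 8.03, 8.84 and 9.14 FPKM with vehicle. The 3 libraries with MinE07 overlapped the C36 libraries and lay above every vehicle library, with a change of 0.015 (SE 0.054, adjusted p = 0.861) against C36 and of 0.17 (SE 0.054, adjusted p = 0.0335) against vehicle. GINS3 was the only member of the 39 called higher with MinE07 in any line or comparison made here. That call ended without the filter on low values, with a replicate block, without trend and robust moderation and without any of MinE07 replicates 1 or 3 or vehicle replicates 1 or 2 (adjusted p over all alternatives 0.00853 to 0.122). The change against C36 turned to -0.028 without C36 replicate 3. In H1975 GINS3 was at 16.5, 16.3 and 17.6 FPKM with MinE07, 18.8, 19.6 and 18.5 FPKM with C36 and 18.97, 18.3 and 18.7 FPKM with vehicle. There the MinE07 libraries lay below every C36 and every vehicle library, and it fell by 0.17 on the log2 scale (SE 0.036, adjusted p = 0.0101).

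Of the 6 primase and polymerase members, 4 fell in H3255 (median -0.12) and 5 in H1975 (median -0.17). PRIM1, the catalytic primase subunit that lays down RNA primers, lay at 6.37, 6.35 and 6.31 FPKM with MinE07, 7.75, 7.59 and 8.16 FPKM with C36 and 7.38, 8.12 and 8.42 FPKM with vehicle in H3255. All 3 libraries given MinE07 lay below every C36 and every vehicle library, and PRIM1 fell by 0.28 on the log2 scale (SE 0.049, adjusted p = 0.00125). Its partner POLA1, the catalytic subunit of polymerase alpha, fell by 0.20 on the log2 scale (SE 0.049, adjusted p = 0.00945) in H3255. In H1975 POLA1 lay at 4.55, 4.51 and 4.73 FPKM with MinE07, 4.901, 5.08 and 5.01 FPKM with C36 and 5.15, 5.64 and 5.301 FPKM with vehicle. With MinE07 all 3 libraries lay below every C36 and every vehicle library, and the change against C36 was -0.11 (SE 0.042, adjusted p = 0.0955), the smallest of the class. A fit of all 36 libraries called it lower there (adjusted p = 0.0363, with 0.0363 to 0.234 over all alternatives). POLA2, the accessory subunit, lay at 7.32, 7.52 and 7.41 FPKM with MinE07, 8.75, 9.15 and 8.57 FPKM with C36 and 9.24, 9.39 and 8.83 FPKM with vehicle in H1975. Libraries with MinE07 lay below every C36 and every vehicle library, and POLA2 fell by 0.24 on the log2 scale (SE 0.037, adjusted p = 0.00225). POLE, the catalytic subunit of the leading-strand polymerase, fell by 0.14 on the log2 scale (SE 0.047, adjusted p = 0.0415) in H3255 and by 0.18 on the log2 scale (SE 0.056, adjusted p = 0.0444) in H1975.

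POLD1, the catalytic subunit of polymerase delta, had the smallest change of the class in H3255, at 16.7, 17.1 and 18.6 FPKM with MinE07, 17.9, 18.2 and 17.2 FPKM with C36 and 18.1, 17.9 and 18.8 FPKM with vehicle. The groups overlapped, and the change was -0.025 (SE 0.043, adjusted p = 0.685), with a value of 0.0037 without MinE07 replicate 1. In H1975 POLD1 fell by 0.13 on the log2 scale (SE 0.039, adjusted p = 0.0472). POLE2, a subunit of the leading-strand polymerase, changed by -0.036 (SE 0.055, adjusted p = 0.646) in H3255 and fell by 0.19 on the log2 scale (SE 0.057, adjusted p = 0.0454) in H1975.

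The sliding clamp PCNA and the 4 loader subunits RFC2 to RFC5 all fell in H3255 (median -0.20), and 3 of the 5 fell in H1975 (median -0.18). RFC5 lay at 13.6, 14.6 and 14.5 FPKM with MinE07, 18.5, 17.1 and 17.8 FPKM with C36 and 17.4, 16.9 and 17.2 FPKM with vehicle in H3255. Its 3 MinE07 libraries lay below every C36 and every vehicle library, and RFC5 fell by 0.31 on the log2 scale (SE 0.039, adjusted p = 0.000183). RFC3 in H3255 was at 9.24, 9.83 and 9.69 FPKM with MinE07, 11.7, 11.1 and 11.5 FPKM with C36 and 9.83, 11.3 and 11.8 FPKM with vehicle. All MinE07 libraries lay below every C36 library, the highest of them met the lowest vehicle library to 3 digits, and it fell by 0.24 on the log2 scale (SE 0.060, adjusted p = 0.00943), a call that ended without the filter on low values (adjusted p over all alternatives 0.000392 to 0.0543). RFC2 lay at 61.1, 59.97 and 63.6 FPKM with MinE07, 68.3, 72.3 and 72.1 FPKM with C36 and 67.3, 72.2 and 72.5 FPKM with vehicle in H3255. Here the MinE07 libraries lay below every C36 and every vehicle library, and RFC2 fell by 0.20 on the log2 scale (SE 0.040, adjusted p = 0.00279).

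In H1975 RFC2 was at 37.5, 38.5 and 36.99 FPKM with MinE07, 39.7, 41.3 and 40.1 FPKM with C36 and 43.6, 40.9 and 39.01 FPKM with vehicle. The MinE07 libraries lay below every C36 and every vehicle library, and the change of -0.10 (SE 0.040, adjusted p = 0.112) missed the threshold, though it passed without vehicle replicate 1 (adjusted p = 0.0387, with 0.0387 to 0.282 over all alternatives). RFC4 changed by -0.18 (SE 0.061, adjusted p = 0.0603) in H1975. PCNA, which tethers the polymerases, lay at 90.9, 93.8 and 95.9 FPKM with MinE07, 102, 106 and 103 FPKM with C36 and 96.9, 106 and 107 FPKM with vehicle in H3255. Its MinE07 libraries lay below every C36 and every vehicle library, and PCNA fell by 0.15 on the log2 scale (SE 0.041, adjusted p = 0.0177). The PCNA call in H3255 ended without the filter on low values and without any of C36 replicate 2 or MinE07 replicate 1 (adjusted p over all alternatives 0.00588 to 0.066). In H1975 PCNA lay at 92.1, 81.1 and 87.5 FPKM with MinE07, 105, 102 and 100.0 FPKM with C36 and 109, 104 and 106 FPKM with vehicle. These MinE07 libraries lay below every C36 and every vehicle library, and it fell by 0.23 on the log2 scale (SE 0.045, adjusted p = 0.00632). The antisense entry PCNA-AS1 was listed at 0.714 to 1.23 times the value of PCNA in each library, and without stated counting by strand the reads of the pair cannot be told apart.

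The 4 nucleotide supply genes had the lowest class median in H3255, -0.32, and all 4 fell there. In H1975 3 of the 4 fell, with a median of -0.21. RRM2, the regulated subunit of ribonucleotide reductase, had the largest change of the 39 in H3255, at 73.1, 77.3 and 75.5 FPKM with MinE07, 108, 107 and 105 FPKM with C36 and 103, 105 and 104 FPKM with vehicle. MinE07 libraries lay below every C36 and every vehicle library, and RRM2 fell by 0.50 on the log2 scale (SE 0.030, adjusted p = 1.22e-06), which is 29.2%. In H1975 it lay at 46.6, 47.8 and 47.2 FPKM with MinE07, 56.1, 59.2 and 56.4 FPKM with C36 and 56.6, 59.96 and 56.8 FPKM with vehicle. Again these libraries lay below every C36 and every vehicle library, and RRM2 fell by 0.28 on the log2 scale (SE 0.033, adjusted p = 0.000573). RRM1, the large subunit of the same enzyme, lay at 49.98, 48.3 and 48.5 FPKM with MinE07, 56.6, 56.8 and 57.9 FPKM with C36 and 54.2, 60.1 and 57.9 FPKM with vehicle in H3255. The 3 libraries with MinE07 lay below every C36 and every vehicle library, and it fell by 0.22 on the log2 scale (SE 0.038, adjusted p = 0.0013), and in H1975 by 0.22 on the log2 scale (SE 0.027, adjusted p = 0.000677).

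TYMS, thymidylate synthase, makes thymidine monophosphate and lay at 59.02, 58.4 and 60.3 FPKM with MinE07, 72.7, 74.7 and 73.5 FPKM with C36 and 73.04, 79.3 and 76.8 FPKM with vehicle in H3255. All 3 libraries given MinE07 lay below every C36 and every vehicle library, and TYMS fell by 0.31 on the log2 scale (SE 0.034, adjusted p = 7.84e-05). In H1975 the fall was 0.21 on the log2 scale (SE 0.043, adjusted p = 0.00832). TYMS shares 39.1% of its exon bases with ENOSF1 on the opposite strand in GENCODE v29. MCM2 shares 22.7% with AC023593.1 and GINS4 21.2% with AC009630.2, also on the opposite strand. On the same strand, POLA2 shares 35.1% with AP000944.2, RRM2 20.2% with AC007240.1 and PRIM1 14.9% with AC117378.1. What these overlaps add to the values was not tested. TK1, thymidine kinase of the salvage route, lay at 114, 112 and 129 FPKM with MinE07, 149, 147 and 151 FPKM with C36 and 153, 152 and 154 FPKM with vehicle in H3255. With MinE07 all 3 libraries lay below every C36 and every vehicle library, and TK1 fell by 0.33 on the log2 scale (SE 0.049, adjusted p = 0.00045). In H1975 TK1 was at 73.1, 81.4 and 76.04 FPKM with MinE07, 84.4, 81.1 and 82.5 FPKM with C36 and 85.8, 77.5 and 79.8 FPKM with vehicle. There the MinE07 libraries overlapped both other groups, and the change was -0.11 (SE 0.047, adjusted p = 0.143).

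**Figure D2:**
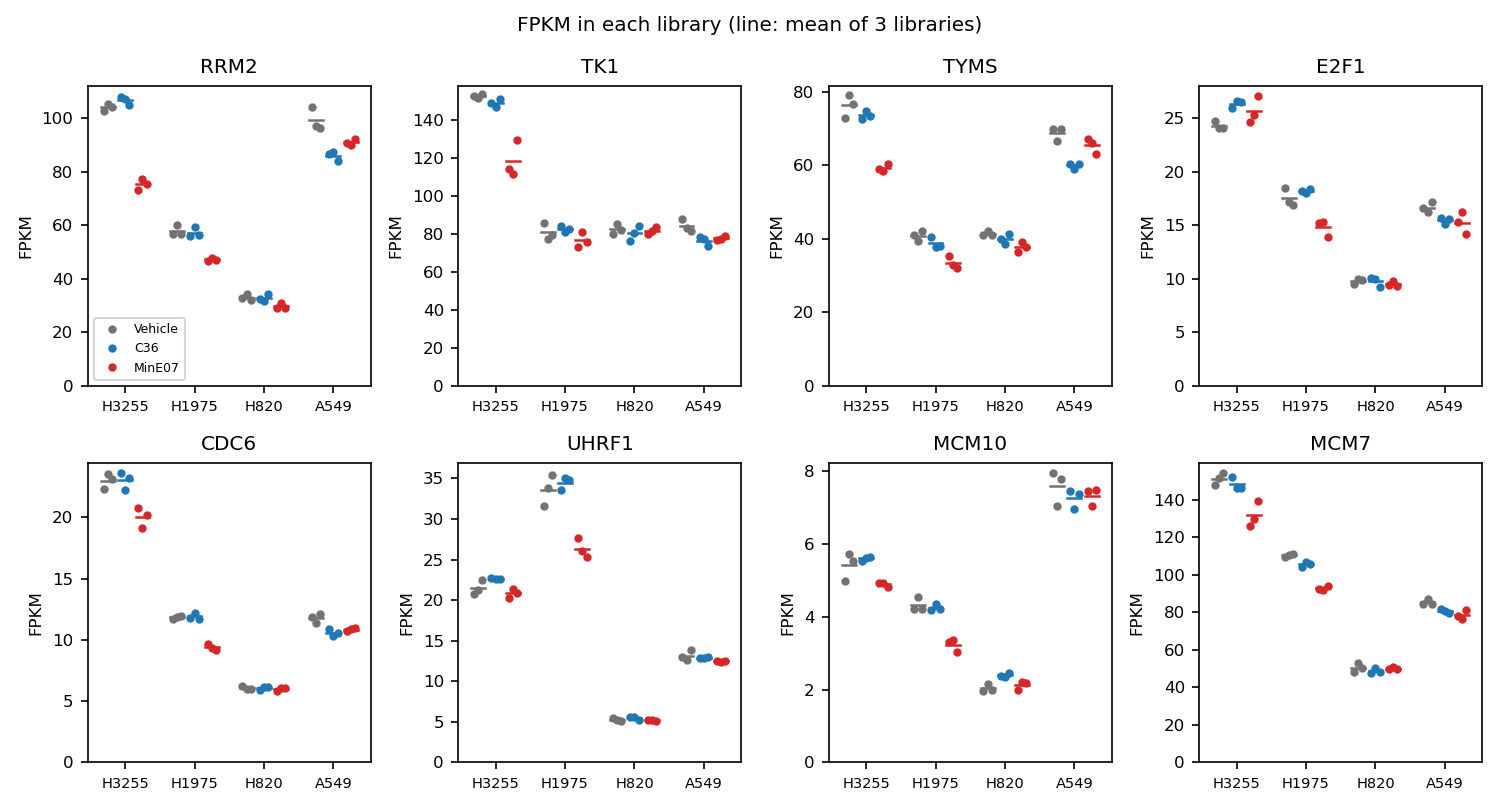
FPKM in each of the 36 libraries for RRM2, TK1, TYMS, E2F1, CDC6, UHRF1, MCM10 and MCM7 (1 panel each, linear axis), by line and treatment, 1 point per library. RRM2 in H3255 lies at 73.1, 77.3 and 75.5 FPKM with MinE07 and at 103 or more FPKM in the other libraries of the line, while UHRF1 separates most in H1975.

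FEN1, which trims the flaps of Okazaki fragments, LIG1, which seals them, and UHRF1, which carries DNA methylation over to the new strand, had a median of -0.12 in H3255 and -0.32 in H1975. UHRF1 lay at 27.7, 26.1 and 25.3 FPKM with MinE07, 33.6, 35.03 and 34.8 FPKM with C36 and 31.6, 33.8 and 35.4 FPKM with vehicle in H1975. Libraries with MinE07 lay below every C36 and every vehicle library, and UHRF1 fell by 0.38 on the log2 scale (SE 0.047, adjusted p = 0.000656), the largest change of the 39 in that line. In H3255 it fell by 0.12 on the log2 scale (SE 0.036, adjusted p = 0.0267). FEN1 in H1975 was at 46.6, 45.04 and 47.2 FPKM with MinE07, 59.4, 57.9 and 56.8 FPKM with C36 and 58.7, 55.9 and 57.2 FPKM with vehicle. Its 3 MinE07 libraries lay below every C36 and every vehicle library, and FEN1 fell by 0.32 on the log2 scale (SE 0.031, adjusted p = 0.000206). In H3255 FEN1 lay at 48.5, 46.5 and 48.3 FPKM with MinE07, 51.4, 51.5 and 51.5 FPKM with C36 and 50.7, 54.3 and 52.5 FPKM with vehicle. Those libraries lay below every C36 and every vehicle library, with a fall of 0.11 on the log2 scale (SE 0.033, adjusted p = 0.0279).

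LIG1 in H3255 was at 13.05, 13.4 and 14.02 FPKM with MinE07, 15.7, 14.2 and 15.3 FPKM with C36 and 13.8, 14.2 and 15.1 FPKM with vehicle. All MinE07 libraries lay below every C36 library and overlapped the vehicle libraries, and LIG1 fell by 0.15 on the log2 scale (SE 0.048, adjusted p = 0.0304). In H1975 it lay at 7.704, 7.81 and 7.18 FPKM with MinE07, 7.72, 8.49 and 8.305 FPKM with C36 and 8.004, 7.999 and 8.27 FPKM with vehicle. Here the MinE07 libraries overlapped the C36 libraries and lay below every vehicle library, and the change was -0.10 (SE 0.045, adjusted p = 0.134). The H3255 call of FEN1 ended without the filter on low values and without any of C36 replicates 1, 2 or 3 or MinE07 replicate 2 (adjusted p over all alternatives 0.0156 to 0.105). That of LIG1 ended without the filter on low values and without any of C36 replicates 1 or 3 or MinE07 replicates 1 or 2 (0.013 to 0.112).

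**Figure D3:**
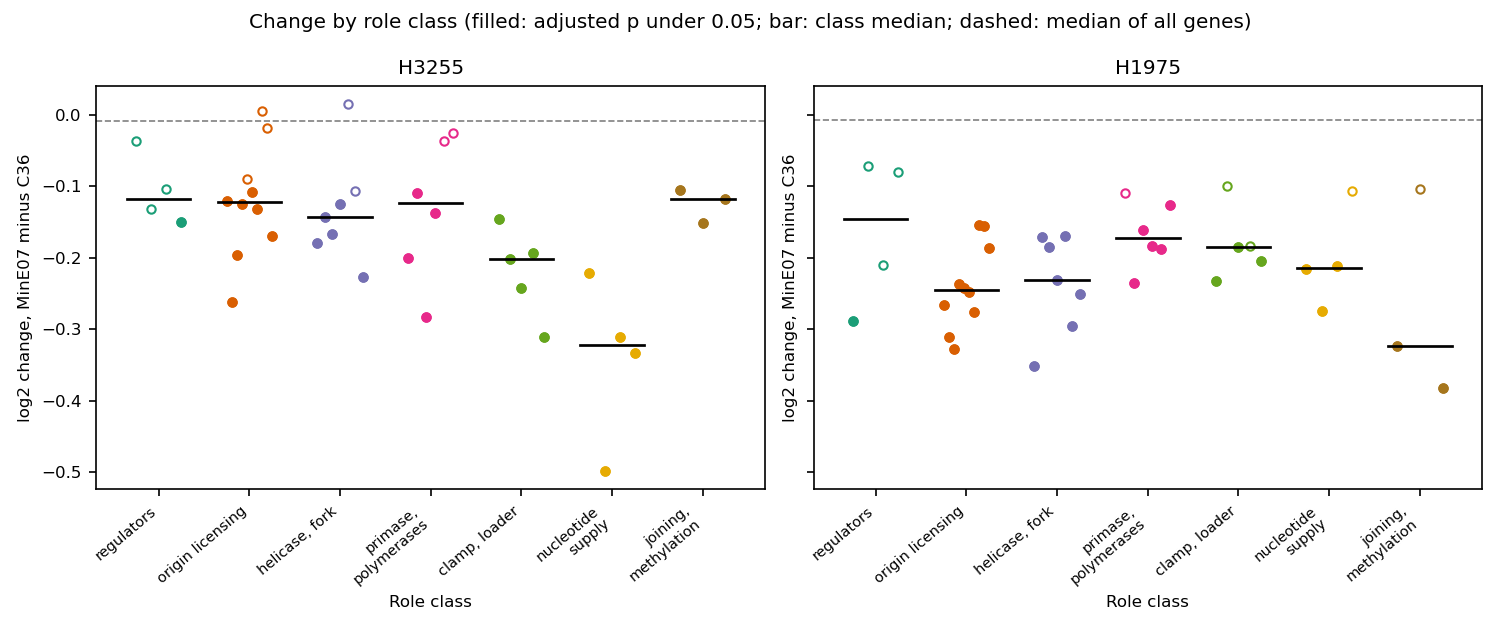
Log2 change between MinE07 and C36 of every member in H3255 (left) and H1975 (right), by role class, with filled points for called members, a bar for the class median and a dashed line for the median of all tested genes. In H3255 the nucleotide supply class sits lowest at a median of -0.32, and in H1975 the joining and methylation class does, at -0.32.

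The L858R lines shared 23 called members, which is 79.3% of the 29 called in H3255 and 74.2% of the 31 called in H1975. They share no library. Since most of the 39 were called in each line, independent calls would share about as many, so the overlap shows no excess. The share of all genes called in both lines was not computed. CCNE2, POLA1, RFC2, RFC4, TK1 and LIG1 were called in H3255 and not in H1975. E2F1, MCM2, MCM5, MCM6, GINS3, GINS4, POLE2 and POLD1 were called in H1975 and not in H3255, and E2F2 and CCNE1 in neither.

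Whether the change itself differed between the L858R lines was tested by an interaction term in a fit of all 36 libraries. It was called for 12 members, where 15.2% of 14572 genes were called. For 10 of them the change was more negative in H1975. UHRF1 had the largest such difference, 0.26 (SE 0.057, adjusted p = 0.00132) for H3255 minus H1975, and E2F1 differed by 0.25 (SE 0.061, adjusted p = 0.00383). FEN1, GINS4, CDC6 and the helicase subunits MCM2 to MCM6 differed by 0.13 to 0.22. For RRM2 and TK1 the change was more negative in H3255, with differences of -0.22 (SE 0.049, adjusted p = 0.00152) and -0.23 (SE 0.065, adjusted p = 0.0152). The TK1 call ended without any of H3255 MinE07 replicate 2 or H1975 MinE07 replicate 2 (adjusted p over all alternatives 0.000794 to 0.0613). The nucleotide enzymes RRM2 and TK1 lay on the H3255 side, and licensing genes, E2F1, FEN1, GINS4 and UHRF1 on the H1975 side.

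**Figure D4:**
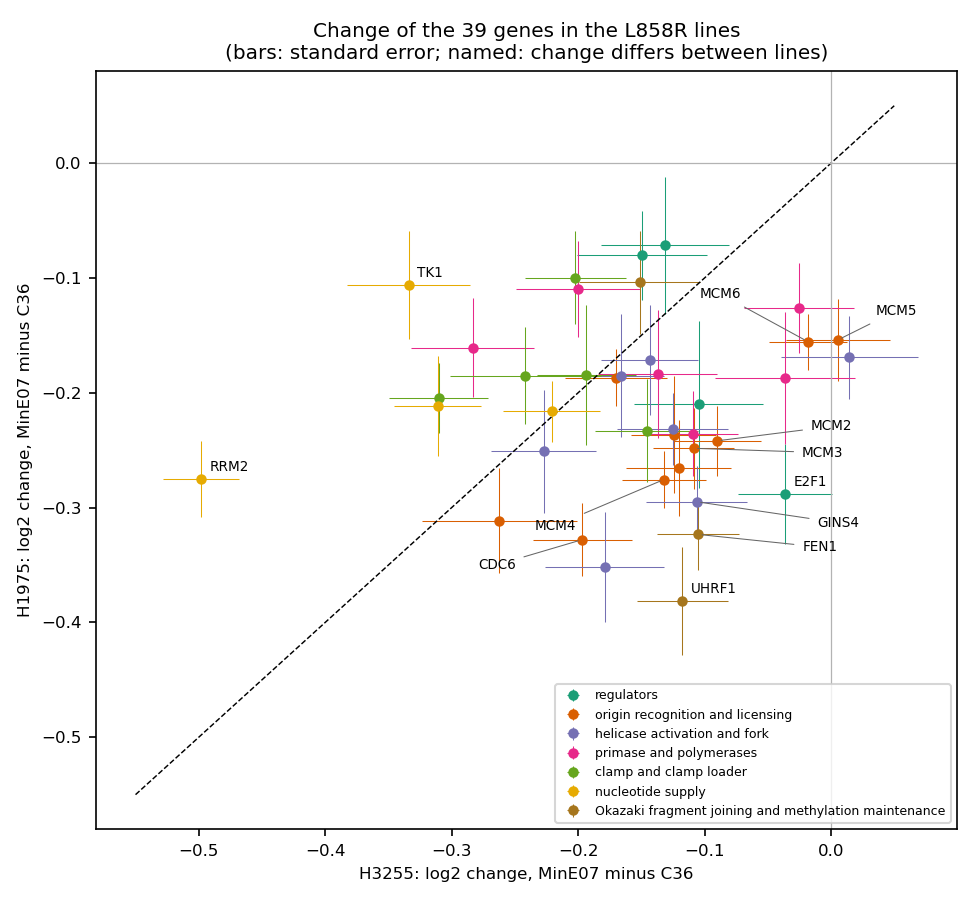
Log2 change between MinE07 and C36 of the 39 genes in H3255 (horizontal) against H1975 (vertical), coloured by role, with standard errors as bars and the line of equal change dashed. The 12 named genes differ between the lines, with RRM2 and TK1 to the left of the dashed line and UHRF1, E2F1 and others below it.

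In H820 and A549 the replication genes were not called between MinE07 and C36. In H820 limma called 0 of 38 members, where 0.0364% of all tested genes were called, and 6 members had an unadjusted p under 0.05. The median change was -0.034 (all genes 0.0067). In A549 it called 0 of 39, with 0% of all genes called and 4 members at an unadjusted p under 0.05. The median there was 0.016 (all genes 0.0016), and a fit of all 36 libraries called 1 member. Counts at an unadjusted p, here and below, take both directions together. The share of all genes at that level is not given, so nothing is read from them. RRM2 in H820 was at 29.03, 30.9 and 29.2 FPKM with MinE07, 32.5, 31.9 and 34.5 FPKM with C36 and 32.7, 34.3 and 31.95 FPKM with vehicle. The MinE07 libraries lay below every C36 and every vehicle library, and the change of -0.15 (SE 0.039, adjusted p = 0.308) missed the threshold. In A549 RRM2 lay at 90.7, 90.02 and 92.02 FPKM with MinE07, 86.7, 87.2 and 83.97 FPKM with C36 and 104, 97.01 and 96.3 FPKM with vehicle. There the MinE07 libraries lay between the other groups, above every C36 and below every vehicle library, at 0.081 (SE 0.040, adjusted p = 0.497) against C36.

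The change with MinE07 against C36 was more negative than in A549 for 19 members in H3255 (14.0% of all genes) and for 29 in H1975 (6.88%), by interaction terms. These terms share the A549 libraries, C36 among them. In A549 the members' median between C36 and vehicle was itself -0.089, with 6 called lower. A shift with C36 in A549 thus enters each difference, and terms against vehicle were not fitted. The largest differences between H3255 and A549 were those of RRM2, -0.58 (SE 0.049, adjusted p = 4.97e-10), TYMS, -0.43 (SE 0.052, adjusted p = 3.03e-07), and PRIM1, -0.41 (SE 0.082, adjusted p = 0.000353). Between H1975 and A549 they were those of MCM10, -0.36 (SE 0.067, adjusted p = 0.000425), CDC6, -0.36 (SE 0.045, adjusted p = 3.78e-06), and RRM2, -0.36 (SE 0.049, adjusted p = 1.22e-05). The H3255 count fell to 12 without the filter on low values, and to 12 after rescaling each library by the median of ratios.

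Against H820 the change was more negative for 12 members in H3255 (11.2% of all genes) and for 14 in H1975 (4.19%). The leading differences were TK1, -0.36 (SE 0.065, adjusted p = 0.000174), RRM2, -0.35 (SE 0.049, adjusted p = 4.02e-06), and LIG1, -0.29 (SE 0.067, adjusted p = 0.00278), for H3255. For H1975 they were GINS4, -0.31 (SE 0.042, adjusted p = 1.79e-05), UHRF1, -0.31 (SE 0.057, adjusted p = 0.000787), and CDC6, -0.31 (SE 0.045, adjusted p = 6.20e-05). TK1 in H820 lay at 80.1, 81.6 and 83.9 FPKM with MinE07 and 76.6, 80.6 and 84.2 FPKM with C36, and these libraries overlapped. GINS4 in H820 lay at 8.77, 8.63 and 8.54 FPKM with MinE07 and 8.84, 8.32 and 8.42 FPKM with C36, which overlapped as well.

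H820 and A549 differed for 2 members, both of ribonucleotide reductase (0.213% of all genes were called in that direction). RRM2 differed by -0.23 (SE 0.049, adjusted p = 0.0327) and RRM1 by -0.20 (SE 0.045, adjusted p = 0.0468). RRM1 lay at 20.01, 20.03 and 20.5 FPKM with MinE07 and 20.6, 20.9 and 21.98 FPKM with C36 in H820. In A549 it was at 32.9, 32.9 and 34.4 FPKM with MinE07 and 31.3, 30.3 and 29.8 FPKM with C36. Its MinE07 libraries lay below every C36 library in H820 and above every C36 library in A549. With vehicle RRM1 in A549 was at 33.9, 33.3 and 35.01 FPKM, above every C36 library there. The differences of RRM2 and RRM1 use the A549 C36 libraries, so a shift with C36 in A549 enters them. Over the alternatives the adjusted p of RRM2 ran from 0.0223 to 0.13 and that of RRM1 from 0.0332 to 0.163. The count was 0 without H820 C36 replicate 3, H820 MinE07 replicate 1 or 3, A549 C36 replicate 2 or 3, or A549 MinE07 replicate 1 or 3. It was 1 without H820 C36 replicate 2 or H820 MinE07 replicate 2, without the filter on low values, with a pseudocount of 0.1, without further copies and with a replicate block.

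Against vehicle, 21 members fell with MinE07 in H3255 (17.2% of all tested genes were called lower) and 31 in H1975 (12.9%). GINS3 rose in H3255, where 21.4% of all genes were called higher. The members' medians were -0.13 in H3255 and -0.23 in H1975, beside 0.015 and -0.0012 for all genes. This comparison and that with C36 share the MinE07 libraries. In H3255 the nucleotide enzymes again had the largest values, RRM2 at -0.46, TK1 at -0.37 and TYMS at -0.36, followed by PRIM1 at -0.31. In H1975 the largest were MCM10 at -0.37, UHRF1 at -0.34, GINS4 at -0.33 and CLSPN at -0.32. All of these passed the test. CLSPN in H1975 lay at 2.49, 2.38 and 2.73 FPKM with MinE07, 3.15, 3.196 and 2.96 FPKM with C36 and 3.21, 3.41 and 3.25 FPKM with vehicle, and its MinE07 libraries lay below every C36 and every vehicle library.

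Against both C36 and vehicle, 16 members were lower in both L858R lines. The comparisons of a line share the MinE07 libraries. The share of all genes with the same joint calls was not computed for these 16 or for the sets below. The 16 members were the licensing genes CDC6, MCM4 and MCM7, the helicase genes MCM10, CDC45, GINS1 and CLSPN, POLA2 and PRIM1, PCNA, RFC3 and RFC5, RRM1, RRM2 and TYMS, and FEN1. In H3255, 10 members were lower against C36 and not called against vehicle (CCNE2, ORC1, ORC6, CDT1, MCM3, GINS2, POLE, RFC4, LIG1 and UHRF1). GINS4 and POLE2 were called there against vehicle alone. In H1975 CDT1, POLE and POLD1 were called against C36 alone, and POLA1, RFC2 and RFC4 against vehicle alone. RFC4 in H3255 lay at 9.93, 9.93 and 9.58 FPKM with MinE07, 11.1, 11.7 and 11.05 FPKM with C36 and 9.596, 9.95 and 10.4 FPKM with vehicle. These MinE07 libraries overlapped those with vehicle, and the C36 libraries lay above both other groups, at 0.17 (SE 0.039, adjusted p = 0.0886) against vehicle.

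In H820 limma called 0 members between MinE07 and vehicle, with 3.02% of all genes called (1.03% lower), and 13 members had an unadjusted p under 0.05. The median was -0.034. A fit of all 36 libraries called 3 and rescaling by the median of ratios called 1. In A549 limma called 0 as well, with 0.216% of all genes called and 10 members at an unadjusted p under 0.05. The median was -0.078, and the fit of all 36 libraries called 3.

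The control aptamer was compared with vehicle on its own. In H3255 and H1975 limma called 0 of 39 members, with 0.305% and 0.233% of all genes called, and 5 members in each line had an unadjusted p under 0.05. No alternative fit called a member in either of these lines. The medians were 0.011 and -0.014. In A549 6 members fell with C36, where 2.38% of all genes were called lower, and the median of the 39 was -0.089 (all genes 0.0100). In 23 members all C36 libraries lay below all vehicle libraries (12.4% of all genes).

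POLE2 in A549 lay at 2.498, 2.87 and 2.87 FPKM with C36 and 3.81, 3.27 and 3.705 FPKM with vehicle. The groups did not overlap, and POLE2 fell by 0.34 on the log2 scale (SE 0.068, adjusted p = 0.0232), the largest of the 6. RRM2 lay at 86.7, 87.2 and 83.97 FPKM with C36 and 104, 97.01 and 96.3 FPKM with vehicle. All C36 libraries were below all vehicle libraries, and RRM2 fell by 0.20 on the log2 scale (SE 0.040, adjusted p = 0.0206). TYMS was at 60.5, 59.1 and 60.5 FPKM with C36 and 69.9, 66.6 and 69.9 FPKM with vehicle. Again no library overlapped, and TYMS fell by 0.20 on the log2 scale (SE 0.038, adjusted p = 0.0206). RFC5 was at 16.2, 16.6 and 15.8 FPKM with C36 and 18.9, 17.9 and 18.2 FPKM with vehicle. These groups were apart, and it fell by 0.17 on the log2 scale (SE 0.037, adjusted p = 0.0297). RRM1 lay at 31.3, 30.3 and 29.8 FPKM with C36 and 33.9, 33.3 and 35.01 FPKM with vehicle. It fell by 0.16 on the log2 scale (SE 0.037, adjusted p = 0.0374) with no overlap. CDC6 was at 10.9, 10.3 and 10.6 FPKM with C36 and 11.9, 11.4 and 12.1 FPKM with vehicle. CDC6 fell by 0.15 on the log2 scale (SE 0.038, adjusted p = 0.048), also with no overlap.

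These 6 genes in A549 had changes of 0.15 (POLE2), 0.081 (RRM2), 0.12 (TYMS), 0.089 (RFC5), 0.13 (RRM1) and 0.034 (CDC6) between MinE07 and C36, none of them called, and that comparison shares the C36 libraries. The A549 count of 6 was 0 without any of C36 replicates 1, 2 and 3, 1 without vehicle replicate 3 and 3 without MinE07 replicate 1. It was 0 without the filter on low values, 0 with a replicate block and 13 in the fit of all 36 libraries. Over the alternatives the adjusted p of RRM2 ran from 0.000121 to 0.0958, that of TYMS from 0.000482 to 0.0852 and that of POLE2 from 0.00058 to 0.107. Those of RFC5, RRM1 and CDC6 ran from 0.00142 to 0.125, from 0.000919 to 0.148 and from 0.00139 to 0.16.

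The change with C36 was more negative in A549 than in H3255 for 4 members (1.70% of all genes), than in H1975 for 3 (1.04%) and than in H820 for 9 (2.64%). These terms share the A549 libraries. Against H3255 the 4 were GINS3, -0.31 (SE 0.070, adjusted p = 0.0104), RRM2, -0.24 (SE 0.049, adjusted p = 0.00478), RFC5, -0.22 (SE 0.051, adjusted p = 0.012), and E2F1, -0.22 (SE 0.061, adjusted p = 0.0403). Against H1975 they were RRM1, -0.20 (SE 0.045, adjusted p = 0.0106), RRM2, -0.19 (SE 0.049, adjusted p = 0.0232), and CDC6, -0.16 (SE 0.045, adjusted p = 0.0423). The H1975 count was 1 without H1975 C36 replicate 2, H1975 vehicle replicate 3 or A549 C36 replicate 3. Against H820 the largest were POLE2, -0.37 (SE 0.091, adjusted p = 0.0125), CCNE1, -0.29 (SE 0.079, adjusted p = 0.0229), and GINS3, -0.26 (SE 0.070, adjusted p = 0.0235). Over the alternatives the adjusted p of RRM2 against H1975 ran from 0.0175 to 0.079 and that of CDC6 from 0.0266 to 0.117, and against H820 that of CCNE1 from 0.0099 to 0.0666 and that of GINS3 from 0.0168 to 0.0703. The H820 count was 3 without H820 C36 replicate 3, 2 without H820 vehicle replicate 3, and 5 without A549 C36 replicate 3 or without A549 vehicle replicate 1 or 3.

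In H820 2 members rose with C36, where 1.56% of all genes were called higher. CCNE1 lay at 10.1, 9.33 and 9.94 FPKM with C36 and 8.62, 8.53 and 8.33 FPKM with vehicle. Its C36 libraries lay above every vehicle library, at 0.19 (SE 0.039, adjusted p = 0.0315). CDT1 was at 8.21, 8.56 and 8.39 FPKM with C36 and 7.21, 7.49 and 7.38 FPKM with vehicle. These groups did not overlap, and the change was 0.18 (SE 0.030, adjusted p = 0.0155). With MinE07 the same genes lay at 9.06, 9.29 and 9.75 and 8.04, 8.17 and 8.03 FPKM in H820. Over the alternatives the adjusted p of CCNE1 ran from 0.0286 to 0.137 and that of CDT1 from 0.0144 to 0.0675. The count of 2 was 0 without C36 replicate 1 or 3, without vehicle replicate 1 or without the filter on low values. It was 1 without C36 replicate 2, MinE07 replicate 2 or vehicle replicate 2 or 3, with plain moderation and with a replicate block, and 4 in the fit of all 36 libraries.

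Further genes of the same process, from a list of 52 that holds other origin, checkpoint, polymerase and chromatin assembly genes, moved in the same lines. This list and the G1 and mitosis lists below were chosen with earlier results of these data known, so they are no independent support. In H3255, 28 of 52 fell and 5 rose between MinE07 and C36 (median -0.12), beside 20.0% of all tested genes called lower and 16.6% called higher. In H1975 25 fell and 1 rose (median -0.14), beside 11.1% and 8.88%. In both lines the share of the list called higher was below that of all genes. MCM8, a helicase of recombination, fell by 0.39 on the log2 scale in H3255. TIPIN, which steadies the fork, fell by 0.33 there, and TICRR, which helps load CDC45, by 0.28. The chromatin factor ATAD2 fell by 0.27. SAMHD1, an enzyme that breaks down deoxynucleotides, rose by 0.30 (SE 0.032, adjusted p = 5.89e-05) in H3255. POLD4, a small polymerase delta subunit, rose in both L858R lines, by 0.26 in H3255 and 0.14 in H1975, and was the only gene of the list called higher in H1975. POLE4 and ORC3 were higher in H3255 as well, by 0.13 and 0.17.

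In H1975 the largest falls of that list were EXO1, a repair exonuclease, at -0.37 (SE 0.048, adjusted p = 0.00087), and CHAF1A, a histone chaperone of the fork, at -0.33 (SE 0.032, adjusted p = 0.0002). GMNN, the inhibitor of CDT1, fell by 0.32 on the log2 scale, and ASF1B, another histone chaperone, by 0.32. In H820 0 and in A549 0 of the list were called between MinE07 and C36, with 7 and 9 at an unadjusted p under 0.05. With C36 against vehicle in A549, 3 of 52 fell (2.38% of all genes were called lower), namely DTYMK at -0.29, DONSON at -0.24 and CDC7 at -0.18.

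Of 26 genes that govern G1, 23 were tested in H3255, where 16 fell and 4 rose between MinE07 and C36, beside 20.0% and 16.6% of all genes. In H1975 25 were tested, of which 11 fell and 3 rose, beside 11.1% and 8.88%. The share called higher was near that of all genes in H3255. CCND1, the D-type cyclin that growth signals induce, changed by -0.20 (SE 0.027, adjusted p = 0.000264) in H3255 and by -0.55 (SE 0.026, adjusted p = 1.25e-05) in H1975. In A549 its change was -0.034 (SE 0.035, adjusted p = 0.739). In H820 it was -0.33 (SE 0.053, adjusted p = 0.127), and there CCND1 was higher with C36 than with vehicle, by 0.28 (SE 0.053, adjusted p = 0.026). CDKN1B, the CDK inhibitor p27, rose by 0.12 in H3255 and 0.15 in H1975. By limma it was not called against vehicle, at 0.055 (adjusted p = 0.27) and 0.094 (adjusted p = 0.161). CDK6 (0.19), TFDP2 (0.17) and RBL2 (0.15) rose more than CDKN1B in H3255, and TFDP2 (0.20) in H1975. Of the other CDK inhibitors, CDKN2D changed by -0.24 in H3255 and -0.26 in H1975, both called lower. CDKN1C was called lower in H3255 (-0.36) and not called in H1975 (0.010). CDKN2C was called in neither line. CDKN2A and CDKN2B were not tested in H3255 and not called in H1975. The repressor E2F7 fell by 0.40 on the log2 scale in H3255 and 0.31 in H1975, and its relative E2F8 by 0.19 and 0.24. In H820 the changes of CDKN1B, E2F7 and E2F8 were 0.038, -0.047 and -0.068, and in A549 they were 0.035, 0.0098 and -0.029, none of them called. CDC25A, the phosphatase that activates CDK2, fell by 0.42 in H1975. CDKN1A, the inhibitor p21, changed by -0.58 (SE 0.050, adjusted p = 1.49e-05) in H3255 and by 0.18 (SE 0.038, adjusted p = 0.00819) in H1975, in opposite directions.

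Without aptamer the levels of the members differed between the lines. H3255 was highest for 21 of the 39, A549 for 9, H1975 for 8 and H820 for 1, while H820 was lowest for 26. The same orders were not counted over all genes, so whether these counts are particular to the members was not tested. Of the 39, 36 differed between H3255 and H1975 (86.1% of all tested genes), 36 between H3255 and H820 (86.3%) and 33 between H3255 and A549 (87.1%). Between H1975 and H820 33 differed (83.7%), between H1975 and A549 31 (84.6%) and between H820 and A549 36 (85.2%), shares near those of all genes. The median of all genes itself differed by up to 0.19 between lines (H1975 minus A549). The ratio of the highest to the lowest line ran from 1.14 for POLA2 to 9.55 for CCNE2, with a median of 2.48. In 27 of 117 pairs of neighbours in a gene's order the levels did not differ beyond their spread by the test.

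CCNE2 in vehicle libraries was at 14.3 ± 0.611 FPKM (SD, n = 3) in H3255, followed by H1975 at 3.72 ± 0.0883, H820 at 3.25 ± 0.171 and A549 at 1.498 ± 0.236, and each neighbour in that order differed. PCNA was highest in A549 at 223 ± 20.9 FPKM, then H1975 at 106 ± 2.897, H3255 at 103 ± 5.48 and H820 at 33.4 ± 0.775. Of these neighbours only H1975 and H3255 were not called apart. GINS1 was at 33.9 ± 1.402 FPKM in H3255, 30.3 ± 1.91 in A549, 10.6 ± 0.658 in H1975 and 4.28 ± 0.119 in H820, with each neighbour called apart. UHRF1 was highest in H1975, at 33.6 ± 1.95 FPKM, and lowest in H820, at 5.25 ± 0.21. LIG1 was the only member with its highest level in H820, at 27.4 ± 0.566 FPKM, against 8.09 ± 0.158 in H1975. RRM2 was at 104 ± 1.22 FPKM in H3255 and 99.2 ± 4.34 in A549, which were not called apart, then 57.8 ± 1.896 in H1975 and 32.97 ± 1.19 in H820.

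**Figure D5:**
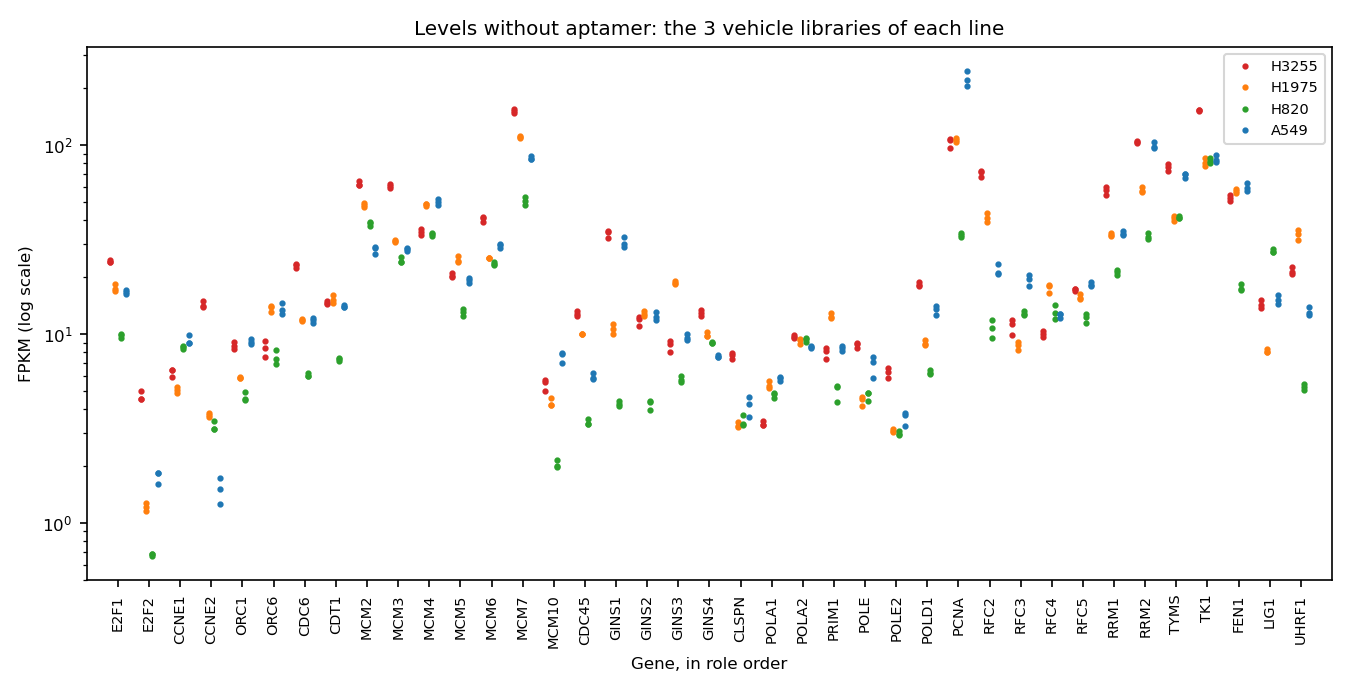
FPKM of each of the 39 genes in the 3 vehicle libraries of each line (log axis, 1 point per library, genes in role order, lines by colour). H820 is lowest for 26 genes, a count not made over all genes. The lines lie farthest apart for CCNE2, from 1.498 FPKM in A549 to 14.3 FPKM in H3255 as group means.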

How the data were processed

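RNA of 36 libraries was measured after poly-A selection with a stranded kit and 100-base paired reads, per the labels' protocols. The submitters' processing notes name HISAT2, Cuffdiff, GRCh38.p12 and hg38; the annotation and the use of strand in counting were not given in the sources used here. The deposited values are FPKM per gene, as the authors computed them, with 68271 entries per library; 1874 without a name and 31 with a repeated name were left out, which leaves 66366, among them 7486 further copies of a gene name. The libraries hold FPKM and no total counts, so depth is known only relative to the median library (0.590 to 1.385), and values of low genes carry the larger error.

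From the FPKM, log2(FPKM + 0.5) was tested with limma 3.58.1 (R 4.3.3, statmod 1.5.0; trend and robust moderation, two-sided), on the 9 libraries of a line with 3 group means, and in a fit of all 36 libraries with 12 groups for differences between lines. Genes with a mean of at least 1 FPKM were tested, and adjusted p (Benjamini-Hochberg, over all tested genes) under 0.05 was called. Fold changes on this scale understate those of low genes. The script was tested on simulated data. Sums, orders and figures used Python 3.11.15, pandas 2.3.3, numpy 2.4.6 and matplotlib 3.10.9. Alternatives were a pseudocount of 0.1 or 1, no filter, rescaling by the median of ratios, a replicate block, plain moderation, no further copies, the fit of all 36 libraries and leaving out each library.

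The members and the gene lists were chosen with earlier results of these data known. Values in every library are given for called members among the 10 with the largest change in H3255 and H1975 between MinE07 and C36, the 6 largest in A549 between C36 and vehicle, the 4 largest in other comparisons, the 3 largest of each difference between lines, and the members with the largest and smallest change of each role class. Further members are named by their calls. Of the lists of other replication, G1 and mitosis genes, up to 4 called genes per direction are named by size, and CCND1, CDKN1B, E2F7, E2F8 and MKI67 in each line.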

Additional observations from a re-analysis of the deposited data

Results flagged for a closer look

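Differences between lines in the size of a change are listed here because an interaction term passed the test; SEs and adjusted p stand with the comparisons above. Between MinE07 and C36, 19 members differed between H3255 and A549, led by RRM2 (-0.58), TYMS (-0.43) and PRIM1 (-0.41), all lower in H3255. Between H1975 and A549 29 differed, led by MCM10 (-0.36), CDC6 (-0.36) and RRM2 (-0.36). H820 and A549 differed for 2, RRM2 (-0.23) and RRM1 (-0.20). Between H3255 and H820 12 differed, led by TK1 (-0.36), RRM2 (-0.35) and LIG1 (-0.29). Between H1975 and H820 14 differed, led by GINS4 (-0.31), UHRF1 (-0.31) and CDC6 (-0.31). Between H3255 and H1975 12 differed, with UHRF1 (0.26) and E2F1 (0.25) lower in H1975 and TK1 (-0.23) lower in H3255.

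Between C36 and vehicle, A549 differed from H3255 for 4 members, led by GINS3 (-0.31), RRM2 (-0.24) and RFC5 (-0.22). It differed from H1975 for 3, RRM1 (-0.20), RRM2 (-0.19) and CDC6 (-0.16), and from H820 for 9, led by POLE2 (-0.37), CCNE1 (-0.29) and GINS3 (-0.26). All of these changes were lower in A549. Values in parentheses are differences in log2 change. The differences with A549 between MinE07 and C36 use its C36 libraries, which differed from vehicle as given here.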

How the results depend on the processing

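Without the filter on low values, which adds genes to the adjustment, the count of called members was 18 in place of 29 in H3255 between MinE07 and C36, 0 in place of 2 in H820 and 0 in place of 6 in A549 between C36 and vehicle. Among the differences between lines it was then 12 (H3255 and A549), 1 (H820 and A549) and 5 (A549 and H820, C36 and vehicle). The fit of all 36 libraries called 4 members in H820 and 13 in A549 between C36 and vehicle, 1 in A549 between MinE07 and C36, and 3 each in H820 and A549 between MinE07 and vehicle. Median of ratios rescaling gave 1 for H820 between MinE07 and vehicle and 12 for H3255 and A549. Plain moderation gave 1 in H820 between C36 and vehicle, and a pseudocount of 0.1 or no further copies gave 1 for H820 and A549. The causes of these moves were not tested.

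The replicate numbers were not taken as pairs, since not every same-numbered pair correlated over 0.1: 0 of 9 did in A549, 1 of 9 in H1975, 3 of 9 in H3255 and 4 of 9 in H820. Of pairs with different numbers 1, 4, 4 and 1 of 18 did. The share was thus higher among same-numbered pairs in H820 and H3255, and lower in A549 and H1975. A rule that asks this of every pair cannot show that pairing is absent. With the replicate block the counts were 1 in H820 and 0 in A549 between C36 and vehicle, and 1 for H820 and A549, and other counts stayed within 1.5 times. The calls of GINS3 in H3255 between MinE07 and vehicle (adjusted p = 0.0594) and of CDC6 for A549 and H1975 between C36 and vehicle (adjusted p = 0.052) ended too.

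Leaving out 1 library gave, between MinE07 and C36, 20 to 29 called members in H3255 and 24 to 33 in H1975, and against vehicle 16 to 23 and 29 to 31. Between C36 and vehicle it gave 0 to 2 in H820 and 0 to 7 in A549. For differences between lines it gave 13 to 18 (H3255 and A549), 22 to 26 (H1975 and A549), 0 to 2 (H820 and A549), 9 to 13 (H3255 and H820), 10 to 14 (H1975 and H820) and 8 to 11 (H3255 and H1975), and for C36 against vehicle 3 to 6, 1 to 4 and 2 to 10 (A549 with H3255, H1975 and H820). The members' median lay between -0.22 and -0.19 in H1975 between MinE07 and C36, -0.25 and -0.22 against vehicle, and -0.028 and -0.00022 between C36 and vehicle. In A549 it lay between 0.0039 and 0.027 between MinE07 and C36, and -0.12 and -0.078 between C36 and vehicle. In H3255 between MinE07 and C36 MCM5 ran from -0.034 (without MinE07 replicate 3) to 0.043, with -0.0016 without C36 replicate 1. GINS3 ran from -0.028 (without C36 replicate 3) to 0.051, and POLD1 from -0.071 to 0.0037 (without MinE07 replicate 1). None of these 3 was called.

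FPKM carry no counts, so counting error per gene is unknown, and 3 libraries a group limit what can be called.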

Other observations

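Genes of the next phase, mitosis, were lower in the same lines. Of 28 mitosis genes, 28 fell between MinE07 and C36 and 28 between MinE07 and vehicle in H3255 (of all tested genes 20.0% and 17.2% were called lower), with medians of -0.27 and -0.37. In H1975 25 and 28 fell (of all genes 11.1% and 12.9%), with medians of -0.21 and -0.26. The 2 comparisons of a line share the MinE07 libraries. UBE2C, which tags cyclin B for destruction, fell by 0.49 on the log2 scale in H3255, and AURKB, a kinase of the chromosome passengers, by 0.46 in H3255 and 0.32 in H1975. CDK1, the mitotic kinase, fell by 0.41 and 0.25. MKI67, the proliferation marker, changed between MinE07 and C36 by -0.36 (SE 0.045, adjusted p = 0.000191) in H3255, -0.19 (SE 0.042, adjusted p = 0.0104) in H1975, -0.16 (SE 0.045, adjusted p = 0.326) in H820 and -0.023 (SE 0.17, adjusted p = 0.977) in A549, by limma over all genes of the line.

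In A549 16 of the 28 fell between C36 and vehicle (median -0.18, with 2.38% of all genes called lower), with DLGAP5 at -0.33 and NDC80 at -0.30. In H820 14 fell between MinE07 and vehicle (median -0.15, with 1.03% of all genes called lower). There no replication member was called in the fit of that line, and 3 were in the fit of all 36 libraries. The calls of the mitosis list between C36 and vehicle in H820 are not given here. Between MinE07 and C36 limma called 0 in H820 and 0 in A549, with 14 and 20 at an unadjusted p under 0.05. Those 2 counts take both directions together and stand without the share of all genes, so they show no fall.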
